A study of Caenorhabditis elegans with 2 samples.

Results

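Nuclear pore and nuclear transport genes of the nematode Caenorhabditis elegans were examined for binding of the ATTF-3 protein at their promoters. The members were the protein-coding genes of the Ensembl annotation whose symbols begin with npp, imb, ima, ran or xpo followed by a number. There were 40 of them among 19973 nuclear protein-coding genes: 26 pore subunits (npp) and 14 transport factors, of which 6 are importins (ima and imb), 3 are exportins (xpo) and 5 are Ran factors (ran). The rule reads current symbols only, so that npp-17, now listed as rae-1, is not among them.

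The study mapped ATTF-3 by chromatin immunoprecipitation with sequencing (ChIP-seq), which recovers DNA fragments attached to a protein and calls their pile-ups as peaks. All worms were of strain RW12296, in which the allele st12296, attf-3::TY1::EGFP::3xFLAG, had been made by CRISPR insertion at attf-3 on chromosome III, and an antibody against GFP recovered the fusion protein. The worms were whole young adults aged 63 hours, synchronized by starving L1 larvae after bleaching. A control alignment stood behind every list, and no lists from untagged worms were used here. The worms formed 1 group with 2 biological replicates of different biosamples, so no contrast between conditions exists and no test between groups was made. Whether the biosamples were separate cultures is not stated. Every tissue of the animal, germ line included, contributed to each library, and a peak does not tell in which cells it arose. The lists held no read counts, so the depth behind each peak is unknown. The signal value of each peak is the authors' own, on a scale that is not stated. Coordinates are on ce11, counted from 1.

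The nuclear pore complex is a ring of nucleoporins set in the nuclear envelope. Its Y complex and inner ring form the scaffold, and nucleoporins rich in phenylalanine and glycine fill the central channel. Importins bind cargo in the cytoplasm and release it in the nucleus, where the small GTPase Ran is loaded with GTP, while exportins carry cargo out together with Ran bound to GTP. ATTF-3 is named for its AT-hook, a short peptide that in other proteins lies in the minor groove of AT-rich DNA.

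Binding was read from the joint list, the conservative list of 1737 peaks deposited for both replicates together and kept for how alike the replicates ranked them. A gene counted as bound if the summit, the highest point, of any of these peaks was at most 500 bp from the 5' end in the annotation. Of the 40 members, 13 were bound (32.5%, 95% Wilson interval 20.1 to 48.0%), against 6.07% of all 19973 genes. Wilson intervals here cover counting error over genes only. Replicate 1's own list of 964 peaks had 10 members bound (25%), against 4.03% of all genes. Replicate 2's list of 1063 peaks had 11 (27.5%), against 4.4%. The share of members bound thus stood above that of all genes in the joint list and in both replicates' lists. No member lies on the X chromosome, where 1.98% of genes were bound, and the autosomes alone gave 6.72%. On chromosome I 6 of 13 members were bound, against 8.93% of all genes there, and on the other chromosomes 7 of 27 (25.9%). By chromosome, all genes on the other autosomes were bound at 4.27% (V) to 8.67% (III).

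Pore subunits were bound at 7 of 26 genes (26.9%, 13.7 to 46.1%) and transport factors at 6 of 14 (42.9%, 21.4 to 67.4%). The intervals overlap, and the difference was not tested. The gene rae-1, outside the rule, had a joint signal of 132.44 at -87 bp, and was in the lists of replicate 1 (55.45) and replicate 2 (72.82). Counting it, an alternative chosen after seeing the data, would give 8 of 27 pore subunits (29.6%) and 14 of 41 members (34.1%). The order of the classes was not kept between replicates: replicate 1 had 6 pore subunits (23.1%) and 4 transport factors (28.6%), replicate 2 had 8 pore subunits (30.8%) and 3 transport factors (21.4%). Among the transport factors 4 of 6 importins, 2 of 5 Ran factors and none of the 3 exportins were bound. For the exportins the Wilson interval of 0 of 3 reached up to 56.1%, so 3 genes are too few for a share. Within the pore, 3 of 4 inner ring genes and 3 of 8 Y complex genes were bound, as was 1 of 3 genes of the cytoplasmic side. None of the 3 central channel genes, the 3 membrane nucleoporin genes, the 3 nuclear basket genes or the 2 npp genes given no place here was bound. Nuclear basket genes had 1 bound in replicate 2's list and no other of these groups had any in either replicate.

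The sequences at the summits show which bases lay under the peaks. Each of the following stretches has the summit and 50 bp on either side, read 5' to 3' along the strand of the named gene from RefSeq's copy of WBcel235 (ce11). The first 7 are from bound members, shown so that summits with and without a repeated 6-mer can be set side by side. The last 2, from the unbound exportin genes xpo-1 and xpo-3, are centred 178 bp upstream of the 5' end, the median summit position of the other bound genes. Capitals mark any of the 3 leading 6-mers on either strand, GCGCGC as the first, ACGCGC as the second and AGCGCG as the third, which are described with the base composition.
npp-23, chrIV:8869774-8869874, minus strand: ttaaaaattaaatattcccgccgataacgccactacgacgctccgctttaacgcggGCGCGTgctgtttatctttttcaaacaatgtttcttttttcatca
npp-3, chrII:11874832-11874932, minus strand: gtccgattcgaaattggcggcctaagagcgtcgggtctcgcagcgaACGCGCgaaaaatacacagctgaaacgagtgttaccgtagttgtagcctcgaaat
npp-8, chrIV:1595934-1596034, minus strand: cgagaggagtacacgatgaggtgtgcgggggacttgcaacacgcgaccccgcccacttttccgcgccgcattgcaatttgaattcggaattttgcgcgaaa
npp-15, chrIII:7928686-7928786, plus strand: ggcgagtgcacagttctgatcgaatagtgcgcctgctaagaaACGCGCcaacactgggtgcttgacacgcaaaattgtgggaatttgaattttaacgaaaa
ran-5, chrII:6047806-6047906, plus strand: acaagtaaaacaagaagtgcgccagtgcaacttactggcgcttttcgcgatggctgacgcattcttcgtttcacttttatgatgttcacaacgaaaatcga
ran-1, chrIII:10748100-10748200, minus strand: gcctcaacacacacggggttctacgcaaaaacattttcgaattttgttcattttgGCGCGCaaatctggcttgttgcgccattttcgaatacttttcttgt
ima-1, chrV:11239365-11239465, plus strand: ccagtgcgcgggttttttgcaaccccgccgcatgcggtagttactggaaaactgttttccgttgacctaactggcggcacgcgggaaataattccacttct
xpo-1, chrV:7804836-7804936, plus strand: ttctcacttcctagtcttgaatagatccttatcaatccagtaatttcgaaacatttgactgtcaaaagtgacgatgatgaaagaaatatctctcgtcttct
xpo-3, chrIV:7924160-7924260, minus strand: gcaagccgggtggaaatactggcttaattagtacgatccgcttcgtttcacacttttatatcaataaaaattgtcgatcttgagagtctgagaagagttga
The stretches of npp-23, npp-3, npp-15 and ran-1 each held a marked 6-mer, close to the middle, and the others shown held none.

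The inner ring had the highest share within the pore, at 3 of 4 genes (30.1 to 95.4%), and some of the highest signals. Its interval overlaps that of the Y complex (13.7 to 69.4%), and the difference was not tested. npp-13 (WBGene00003799, chromosome I, 2097346 to 2123443, plus strand) encodes the worm Nup93, a scaffold nucleoporin that in worm embryos is needed for the pore to exclude large molecules. Its peak had a signal of 565.88 in replicate 1 and 532.98 in replicate 2, and 1095.02 in the joint list, where it ranked 64 of 1737. The summit lay at -233 bp from the 5' end, negative distances being upstream, and the replicates' summits differed by 5 bp. No other protein-coding 5' end lay within 500 bp of it.

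npp-3 (chromosome II, 11865431 to 11874788, minus strand) encodes Nup205, a partner of Nup93. Its peak had signals of 172.28 and 174.08 in replicates 1 and 2 and 336.52 in the joint list (rank 282). The summit at -94 bp was the closest of all the bound members' strongest summits to a 5' end. The divergent gene top-2, which encodes topoisomerase II, begins on the other side of the peak, 266 bp from the summit. npp-8 (chromosome IV, 1567921 to 1595824, minus strand), which encodes Nup155, had signals of 104.07 and 145.69 in replicates 1 and 2 and 256.31 in the joint list (rank 360), with the summit at -160 bp. The remaining inner ring gene, npp-19, which encodes Nup35, had its closest joint summit 25784 bp away. All 3 bound inner ring genes were in the lists of both replicates.

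The Y complex was bound at npp-23, npp-6 and npp-15. npp-23 (WBGene00007493, chromosome IV, 8868036 to 8869679, minus strand) encodes Nup43 and carried the second highest signal of the members. It had 408.16 in replicate 1, 482.78 in replicate 2 and 889.48 in the joint list. Its summit at -145 bp fell on the same base in both replicates. npp-6, which encodes Nup160, had signals of 83.36 and 129.34 in replicates 1 and 2 and 213.59 in the joint list (rank 428). Its summit at -453 bp lay within an intron of spd-5, a divergent neighbour that encodes a scaffold protein of the centrosome, and was nearer to the 5' end of spd-5 (278 bp).

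npp-15, which encodes Nup133, had 2 joint summits within 500 bp, at -307 bp with a signal of 128.41 and at -105 bp with 16.63, whose peaks overlap. The stronger had 48.33 in replicate 1, where it was in the ranked list only, and 88.5 in replicate 2, where it was in the thresholded list. The ratio of replicate 1 to replicate 2 was 0.546, the lowest of the 13 members, and their summits were 94 bp apart, the widest gap. The summit at -307 bp lay 19 bp from the 5' end of the divergent gene C29E4.13. The Y complex genes npp-2, npp-5, npp-10, npp-18 and npp-20 were not bound. Of the cytoplasmic side, npp-14, which encodes Nup214, had 57.17 in replicate 1's list and 49.8 in replicate 2's ranked list only. Its joint signal of 106.97 (rank 1087) was the lowest of the members, and its summit at -306 bp lay 30 bp from the divergent gene cel-1, which encodes the mRNA capping enzyme.

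Importins were bound at both kinds of gene, the alpha type that reads the nuclear localization signal and the beta type that passes through the pore. ima-2 (chromosome I, 6315233 to 6317262, plus strand) encodes an importin alpha and had signals of 105.83 and 90.83 in replicates 1 and 2 and 195.88 in the joint list (rank 476), with its summit at -329 bp and no other 5' end near. imb-3 encodes the worm importin 5 and had 49.08 and 70.33 in replicates 1 and 2 and 119.73 in the joint list, with its summit at -194 bp. These were the importin genes found in both replicates' lists. ima-1, also an importin alpha gene, had 84.38 in replicate 1's list, 60.55 in replicate 2's ranked list and 143.23 in the joint list. Its summit at -260 bp lay 84 bp from dvc-1, a gene of the DNA damage response. imb-1, which encodes importin beta, had 65.6 in replicate 1's list, 50.21 in replicate 2's ranked list and 117.32 in the joint list. Its summit lay at -112 bp, and 37 bp from the divergent gene mfsd-13.1. ima-3 and imb-2, an importin alpha and a transportin gene, had no joint summit within 12433 and 15983 bp.

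Ran itself was at the weak end of the bound members. ran-1 encodes the GTPase, and its peak had 49.17 in replicate 1 and 63.07 in replicate 2, in both cases in the ranked list only. It was the 1 bound member in neither replicate's thresholded list, against 22.7% of other bound genes. Its joint signal was 114.57 (rank 966), and its summit at -422 bp lay nearer to dkc-1 (279 bp), the divergent gene for the pseudouridine synthase dyskerin. ran-5, which encodes a Ran binding protein, had 56.99 in replicate 1's ranked list, 92.81 in replicate 2's list and 146.82 in the joint list. Its summit at -253 bp lay 11 bp inside the divergent gene R12C12.6, in coding sequence. ran-2, the GTPase activating protein gene, ran-3, the exchange factor gene, and ran-4, the nuclear transport factor 2 gene, were not bound. Their closest joint summits were 4597, 4076 and 95209 bp away.

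**Figure D1:**
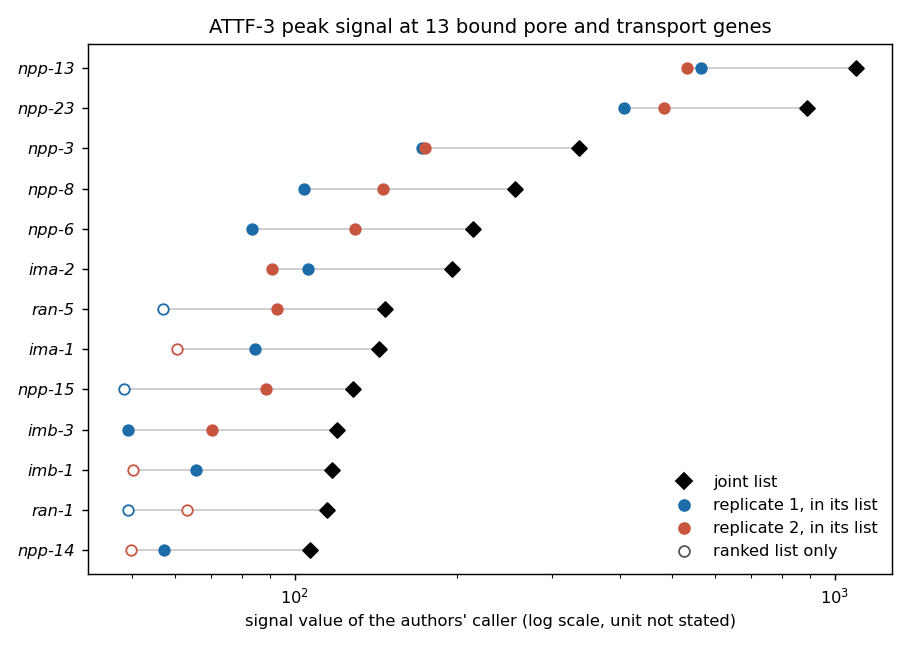
Signal values (log scale) of the strongest peak within 500 bp of each of the 13 bound genes, as diamonds for the joint list and circles for each replicate. Open circles were in a replicate's ranked list but not in its thresholded list. npp-13 and npp-23 stand apart at 1095.02 and 889.48, and the lower 7 genes, from ran-5 down, lie between 106.97 and 146.82 in the joint list.

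Signals thus spanned 106.97 to 1095.02 over the 13 genes, with a median of 146.82, against 155.23 for the 1199 other bound genes. The bound pore subunits had a median of 256.31 and the bound transport factors 131.48. The ranges of the classes overlapped, from 106.97 to 1095.02 for pore subunits and from 114.57 to 195.88 for transport factors. The joint signal was 0.938 to 1.03 times the sum of the replicates' signals. Both replicates' thresholded lists held 7 of the 13 peaks (53.8%), against 55.1% of those of other bound genes. The pore accounted for 5 of these 7. The ratio of replicate 1 to replicate 2 ran from 0.546 to 1.39 in the ranked lists, with a median of 0.845, against 0.918 over 959 other promoter peaks.

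Summits of the bound members all lay upstream of the 5' end, at a median of -253 bp (quartiles -307 and -160), against 89.1% upstream and a median of -178 bp (-282 and -87.5) for other bound genes. At 8 of the 13 the peak was shared with a second protein-coding 5' end within 500 bp (61.5%, against 47% of other bound genes), and in all 8 that gene was divergent. By its strongest summit, the member itself was the nearest gene in 6 of 13 cases (46.2%), against 76.6% of other bound genes. The 6 were npp-13, npp-23, npp-8, ima-2, imb-3 and npp-3. At the other 7 the neighbour's 5' end was nearer, and the lists do not tell which gene of a pair a peak belongs to. Giving each summit to its nearest gene alone left 7 members bound, npp-15 among them through its weaker summit, and a limit of 250 bp also left 7. The share of all genes bound under those settings is not given here.

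**Figure D2:**
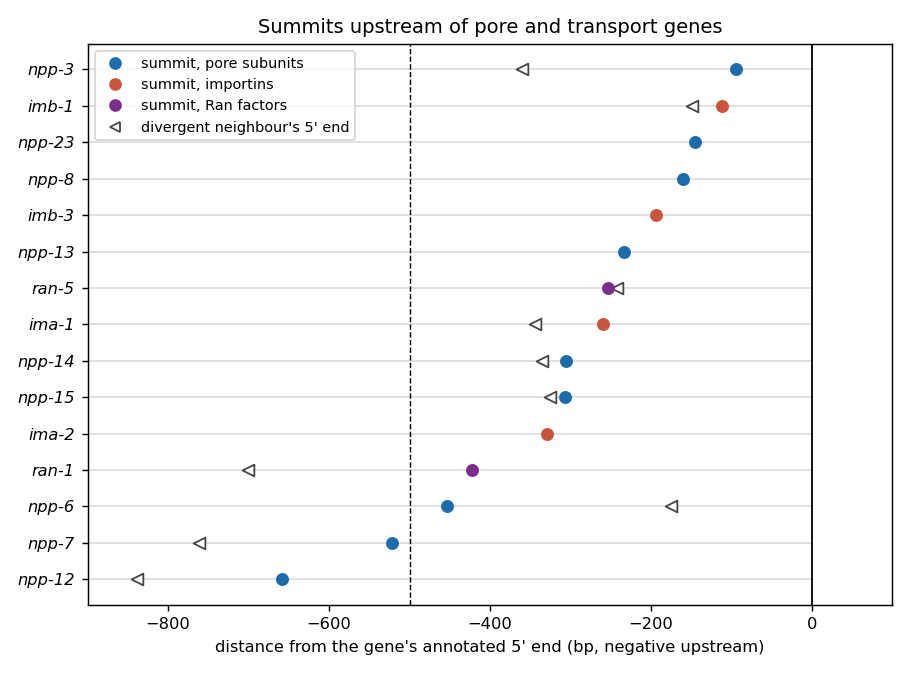
Distance of the strongest joint summit from the 5' end of each bound gene, and of the closest joint summit for npp-7 and npp-12, which lie past the 500 bp limit (dashed). Open triangles mark the 5' end of a divergent neighbour: 8 of the 13 bound genes have one beside the same peak, and all summits lie upstream, from -94 to -453 bp.

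The 500 bp limit fell between ran-1 at -422 and npp-6 at -453 bp on the inside and npp-7 at -522 and npp-12 at -658 bp on the outside. npp-7, which encodes the basket nucleoporin Nup153, had a joint signal of 169.52 at that summit, and replicate 2's own summit at -479 bp (100.37) counted as bound. npp-12, which encodes the membrane nucleoporin gp210, had 164.63. Both signals were above the bound members' median. The divergent genes unc-40 and T23H2.3 begin 761 and 839 bp from the 5' ends of npp-7 and npp-12. Both neighbours were bound, with these same signals, and both summits lay nearer to the neighbour than to the member. The next member out, npp-11 of the central channel, had a weak summit (75.86) at 1559 bp inside the gene. For all other unbound members the closest joint summit was at least 4076 bp away.

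Most unbound members had a ranked peak near the 5' end that fell short of the joint list's threshold. In the joint ranked list, which holds 71287 peaks before the threshold, 37 of 40 members had a summit within 500 bp (92.5%), against 55.6% of all genes. Of the 27 unbound members 24 had one (88.9%), against 52.6% of other unbound genes, with a median strongest signal of 43.64 against 37.57 among those that had one. The highest of these were npp-18, which encodes Seh1 of the Y complex, at 94.06, and npp-9, which encodes Nup358 of the cytoplasmic side, at 86.22. npp-18 had 33.87 in replicate 1 and 61.31 in replicate 2, whose list held it. npp-9 had 47.7 and 38.19 in the replicates' ranked lists. Both were bound in the list from pooled reads, which had 15 members (37.5%), against 6.01% of all genes. The next were npp-10 (81.84), ima-3 (72.74) and npp-27 (71.63). A higher −log10 of the irreproducible discovery rate (IDR) means that the replicates ranked a peak more alike. It was 1.73 at npp-18, 2.0 at npp-9, 0.348 at npp-10, 1.19 at ima-3 and 1.73 at npp-27. The other unbound members with a ranked summit had 0.0497 to 0.92, and the lowest bound member, npp-14, had 2.84. Most of these ranked peaks were thus poorly reproduced.

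Each of the 3 exportin genes had a summit in the ranked list, as did 52.6% of other unbound genes. Their signals lay within the quartiles (28.53 and 48.35) of those other unbound genes that had one. xpo-2, which encodes CAS, the carrier that returns importin alpha to the cytoplasm, had 43.73 at -131 bp. It had 18.32 at -141 bp in replicate 1 and 41.52 at -261 bp in replicate 2. xpo-3, which encodes the exportin of tRNA, had 37.4, and xpo-1, which encodes the main protein exportin CRM1, had 35.24. The −log10 IDR of the 3 exportins' peaks in the ranked list ran from 0.0497 (xpo-3) to 0.14 (xpo-1). No summit lay within 500 bp of npp-5, npp-26 or ran-4 in that list. Ranked peaks are so dense that a summit near a gene says little by itself.

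**Figure D3:**
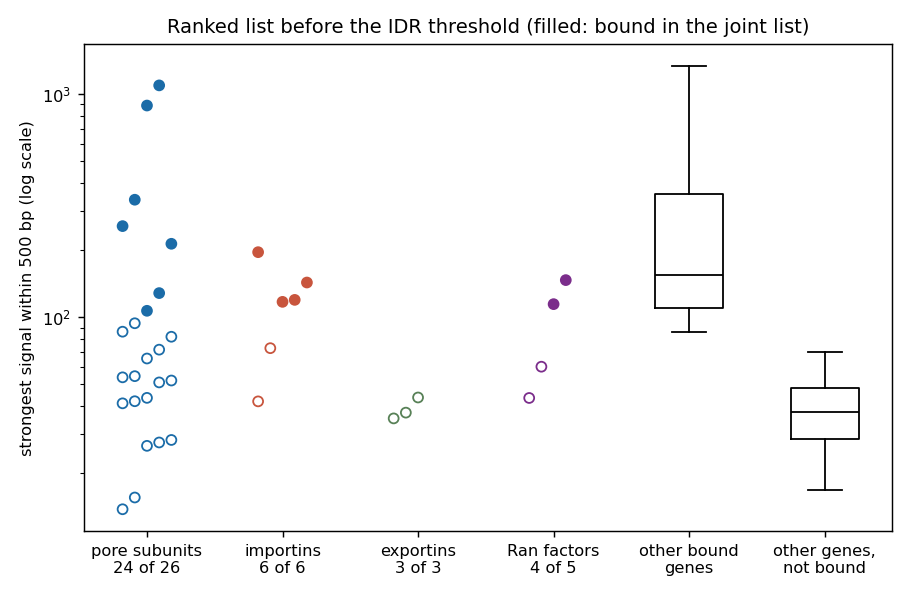
Strongest signal (log scale) within 500 bp of the 5' end in the joint ranked list, for the members with such a summit by class and for other genes as boxes (median, quartiles, and whiskers at the 5th and 95th percentiles). Filled points are bound in the joint list. The exportins lie at 35.24 to 43.73, around 37.57, the median of those other unbound genes that had a ranked summit.

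The windows of the strongest summit and 50 bp on either side had a median of 55.4% A and T (range 43.6 to 66.3%) at the 13 bound members, against 53.5% at 965 other promoter peaks. Windows centred 178 bp upstream of the 5' ends of other unbound genes had 66.3%, and those of the 27 unbound members 63.4%. That position is the median of the other bound genes, while the bound members' summits had a median of -253 bp. In the stretches printed above, npp-8 had the lowest share (43.6%) and npp-23 the highest of the bound genes shown (59.4%), against 65.3% at xpo-1 and 60.4% at xpo-3. All of the 13 but imb-1 lay below 60.4%, the lower quartile of the windows of other unbound genes. Read over 500 bp upstream, bound and unbound members had 65.2% and 65.8%.

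**Figure D4:**
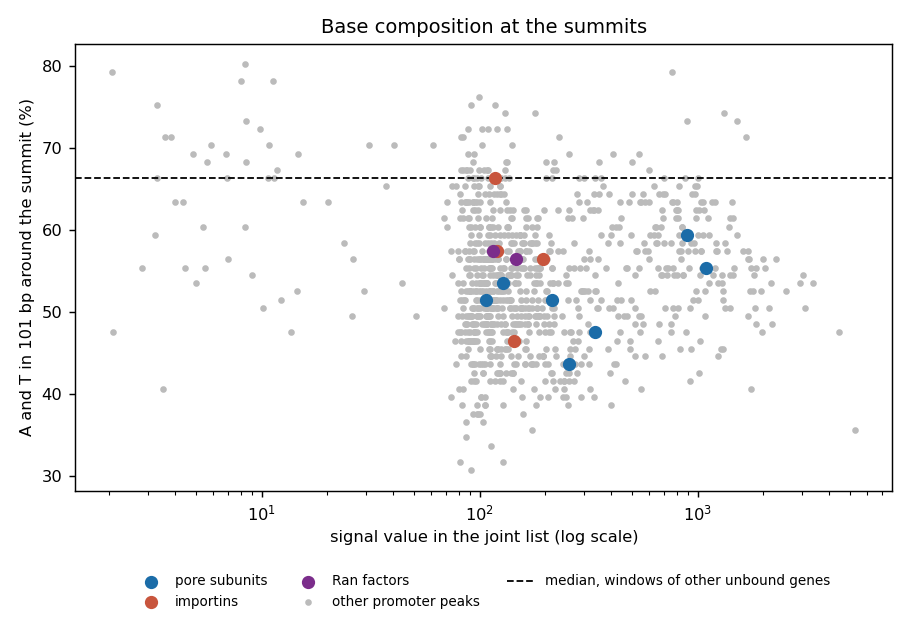
Percent A and T in the summit and 50 bp on either side for each promoter peak of the joint list against its signal (log scale), with the members coloured by class. Of the 13 members, imb-1 reaches the median of unbound genes' windows (dashed, 66.3%), and the others lie between 43.6 and 59.4%.

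The leading 6-mers were taken from the other promoter peaks, without those of the members, as the 3 with the highest ratio of their share at summits to their share in windows of unbound genes. Either strand counted, and the 6-mers overlap each other. GCGCGC was in 13.8% of the other promoter peaks and 1.14% of windows of other unbound genes, ACGCGC in 21.6% and 2.08%, and AGCGCG in 15.9% and 1.55%. Any of the 3 was in the summit windows of 4 of 13 bound members (30.8%), against 34.1% of other promoter peaks and 3.56% of windows of other unbound genes. The 4 were npp-23, npp-3 and npp-15 with ACGCGC and ran-1 with GCGCGC. In all 4 the middle of the 6-mer lay within 10 bp of the summit, at 1.5 to 8.5 bp, as in 32.5% of the 329 other peaks that held one. Of unbound members' windows 4 of 27 held one (14.8%), at npp-1, npp-9, npp-19 and npp-22. Over 500 bp upstream, any of the 3 occurred in 4 of 13 bound and 12 of 27 unbound members, against 15.7% of all genes. The share over that length was thus not higher at bound members than at unbound members. Outside the members it was 46.6% of the 1199 other bound genes and 13.6% of other unbound genes. The 6-mers were chosen from peaks and windows of these same genes, so that difference was partly set by the choice. A match is a run of letters and not a shown binding site. The first 6-mer by the same ratio with no CGC or GCG, ACTCCG (16.2% against 1.64%), was chosen after its values were seen, and was at 1 bound member, npp-13.

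Other genes of nuclear envelope and transport pathways, listed by symbol, were bound at 14.3 to 37.5% by list. The lists were chosen with earlier results of these data known, so their shares depend on that choice and were not tested. Nuclear envelope and lamina genes were bound at 5 of 17 (29.4%, against 6.07% of all genes). lem-4 had a signal of 1410.33 and lem-2, which encodes a LEM domain protein of the inner membrane, had 139.39, both in the lists of both replicates. The lem-4 summit lay at 270 bp, downstream of the 5' end. baf-1, which encodes the chromatin bridging protein BAF, had 97.77, sun-1, which encodes a SUN domain protein, had 104.58, and emr-1, the emerin gene, had 87.95. These 3 were in neither replicate's own list. Genes of mRNA export were bound at 6 of 16 (37.5%). aly-2, which encodes an export adaptor, had 3047.14 at a peak shared with the RNA polymerase gene rpb-12. The cap binding genes ncbp-1 and ncbp-2 had 779.1 and 319.64, that of ncbp-1 at a peak shared with rbx-2. thoc-5 and thoc-1 of the THO complex had 153.48 and 124.37, and the helicase gene hel-1 had 93.77. The hel-1 peak was in neither replicate's list, and that of thoc-5 in replicate 1's list only. Of 7 genes of SUMO conjugation, which in other animals acts at the pore through Nup358, only smo-1, the gene of SUMO itself, was bound (14.3%), at 108.46 and -491 bp. Its peak was in replicate 1's list only.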

How the data were processed

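Peak lists of ATTF-3 ChIP-seq in 2 biological replicates of 1 group were used, with replicate numbers from the labels. Sonication broke the chromatin and ce11 was the genome, per the labels. Per the descriptions deposited with the lists, each came from aligned reads of 1 or both replicates together with a control. The aligner is not given in the sources used here, nor is the peak caller. The 8 deposited lists at hand were made by the authors, ranked by or thresholded on the irreproducible discovery rate (IDR). Each deposited peak has a signal value, a scaled IDR score capped at 1000 and, in ranked lists, the −log10 of the global IDR. Thresholded lists begin at a score of 830, an IDR of 0.01. The second ranked list of the series was not used.

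The 5' ends came from Ensembl release 115 (WBcel235, the same assembly as ce11), mitochondrial genes left out, and the sequences from RefSeq's copy of WBcel235. All peaks lay within chromosome lengths. Where a gene had several summits within 500 bp, the strongest was described. For bound members, replicate values are those of the strongest peak that overlapped the joint peak by at least 1 bp. For unbound members they are those of the strongest summit within 500 bp in each list, which need not be the same peak. Leading 6-mers had to be in at least 5% of peaks. Genes named were all bound members, those within 2000 bp or bound under an alternative, Ran, importin beta genes, exportins and neighbours at a shared peak; any other member was named after its values were seen. Of the listed mRNA export genes, 16 of 17 were annotated. The members, lists and alternatives were chosen with earlier results of these data known, so no set test was made. Code was tested on simulated data. Python 3.11.15, pandas 2.3.3 and scipy 1.17.1 were used.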

Additional observations from a re-analysis of the deposited data

How the results depend on the processing

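Pore subunits stayed within 1.5 times their count of 7 under every alternative tried, from 5 to 9. The counts with the 5' end of any transcript and with overlapping peaks joined were the main counts. A window of 250 bp left 7 of the 13 members bound, 2 of them transport factors, with a median distance of -145 bp and a median signal percentile within the list of 79.3, against 61.1. Giving each summit only to its nearest gene also left 7, again with 2 transport factors, at -160 bp and 79.3. Asking for the joint peak in both replicates' lists, chosen after seeing the data, left 7 with 2 transport factors, at -194 bp and 79.3. Peaks above the joint list's median signal alone kept 3 transport factors and gave a percentile of 50.7 among those peaks. A window of 1000 bp added npp-7 and npp-12, whose summits lay nearer to bound divergent neighbours, and gave 66.3. Leaving out a replicate gave 3 to 4 transport factors, a median distance of -256 to -213 bp and a percentile of 48.8 to 53.3. ACTCCG was in 1 summit window, against 4 for the leading 6-mers. The cause of these shifts was not tested. Apart from the replicates' lists and the list from pooled reads, the share of all genes bound under these alternatives is not given here. The counts alone thus do not place the members against all genes. With no counts deposited, the depth behind peaks such as that of ran-1 is unknown, and 3 exportins are too few for a share.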

Other observations

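In 3 cases members lie within 10000 bp of each other on the same strand. ran-2 begins 479 bp after the end of npp-15, which was bound while ran-2 was not. imb-3, which was bound, lies 3559 bp downstream of xpo-2, which was not. xpo-3 and npp-27 are 6441 bp apart and neither was bound.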
